A study of Mus musculus with 105 samples.

Results

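Translation factors and TOP messages were followed here through activation, transcription arrest and translation arrest of primary mouse T cells. The set comprised 46 named genes of the 22322 genes in the count table. All 46 were found, and all 46 passed the filter on low counts that left 10741 genes for testing. They fell into 2 classes, 10 elongation factors and TOP messages and 36 initiation factors. The first class held 5 elongation factor genes (Eef1a1, Eef1b2, Eef1d, Eef1g, Eef2) and 5 further TOP messages (Pabpc1, Pabpc4, Tpt1, Naca, Btf3). The second held 6 factors of the ternary complex and scanning, 5 eIF2B subunits, 13 eIF3 subunits, 8 members of the eIF4 group, the 4E-BP genes Eif4ebp1 and Eif4ebp2, and Eif5a with Eif6. All 36 are counted below as initiation factors. The name is loose for the 4E-BP genes, which encode repressors, and for Eif5a, which helps ribosomes through difficult peptide bonds. The members were listed by name, with no threshold on a measured value, and the list was drawn up with earlier results of these data known.

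The cells were CD4+ T cells of 6 week old female C57BL/6J mice, taken from spleen and lymph nodes, cleared of red cells on Ficoll and purified by negative selection. They were either resting or activated with magnetic beads that carry antibodies to CD3 and CD28. How long activation lasted before sampling is not given in the sources used here, and nothing ties a replicate number to a mouse, so p-values measure only the spread between these samples. Activated and resting cells were left untreated or received the transcription inhibitor triptolide at 25 µM, cycloheximide (CHX) at 100 µg/ml, harringtonine at 2 µg/ml, or triptolide with either of the last pair. Activated cells also received the transcription inhibitor DRB at 65 µM, alone or with CHX or harringtonine. CHX blocks elongating ribosomes, and harringtonine stops ribosomes at the first steps after initiation. Total RNA was taken from equal numbers of cells at 0, 1 and 3 h with ERCC spike-in RNAs counted in every library, and 35 groups of 3 biological replicates (numbered 2, 3 and 4) were sequenced. Triptolide in both states and DRB in activated cells had 0 h samples of their own, while CHX and harringtonine, alone or combined, were sampled at later times. The study's title asks how decay that depends on translation differs from decay that does not.

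As background, initiation begins when eIF2 carries the initiator tRNA to the small ribosomal subunit and eIF4F, made of the cap-binding protein Eif4e, the helicase Eif4a1 or Eif4a2 and the scaffold Eif4g1 or Eif4g3, brings the mRNA. eIF3 holds these parties together, eIF2B recharges eIF2 with GTP, and the 4E-BP proteins keep Eif4e away from the scaffold until mTOR phosphorylates them. Messages for elongation factors and ribosomal proteins often start with a C followed by a run of pyrimidines, the TOP tract, through which mTOR and Larp1 set their translation and stability, and quiescent lymphocytes are known to store such messages.

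The annotated starts of a few members are shown because the TOP tract is read at the very first bases of the message. The motif searched was a C followed by at least 5 further C or T bases on the transcript strand. The next 4 lines give 30 bases of RefSeq sequence (GRCm38.p6), 5′ to 3′, with pyrimidine runs in capitals. Those of Eef1a1 (chr9:78481710-78481739, minus strand) and Tpt1 (chr14:75845241-75845270, plus strand) span 15 bases on each side of the annotated start, as does that of Eif4e (chr3:138526176-138526205, plus strand). That of Eef2 (chr10:81176631-81176660, plus strand) runs downstream from the annotated first base. Its run begins at base 16, outside the positions searched below, where Eef2 had no match. A second RefSeq start of Eif4e (chr3:138527253-138527282, plus strand) is not printed, and its pyrimidine run also lies outside those positions.
Eef1a1: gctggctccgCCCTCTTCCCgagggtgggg
Eef2: gttgacgtcagcggtCTCTTCCgccgcagc
Tpt1: gtcaccgctgacgacagttccgggggagcc
Eif4e: tgctaaaacagcagcggaggcggagggagc
The following 4 lines give the first 20 bases of GENCODE transcripts (mm10) that begin with the motif itself, from Eef1b2 (chr1:63177130-63177149, plus strand), Eef1d (chr15:75909287-75909306, minus strand), Pabpc1 (chr15:36608954-36608973, minus strand) and the eIF3 subunit gene Eif3f (chr7:108934417-108934436, plus strand).
Eef1b2: CTTTTTTTCCCTCagcgctg
Eef1d: CTCTCCTTTgcagtcctgag
Pabpc1: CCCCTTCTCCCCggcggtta
Eif3f: CTCTTTCTCggcaagatggc
A GENCODE transcript began with the motif in 3 of 10 elongation and TOP genes, in 4 of 36 initiation factor genes (Eif3f, Eif3m, Eif4a2 and Eif4g2) and in 22 of 83 cytosolic ribosomal protein genes (26.5%), beside 3.47% of 21877 genes. RefSeq starts were available for 36 members. With the C allowed from 5 bases before to 10 bases after the start, the motif stood at 1 of 7 elongation and TOP genes and 6 of 29 initiation factor genes, beside 16.1% of 27025 genes with any such start. A missing match says only that these letters are not in that window of the annotation.

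Libraries held between 6300 and 6479221 exon counts, and the middle one held 2135827. Replicate 3 of resting cells at 1 h of triptolide had 6300, replicate 3 of untreated activated cells at 0 h had 141028, and the next had 551975. Between 50.5% and 91.5% of reads were not unique, so genes that share sequence with others are uncertain. The share of 50-base stretches also found in other genes was 70.7% for Pabpc4, 65.3% for Eif4a1, 64.3% for Eef1g, 60.6% for Eef1a1, 58.6% for Btf3 and 42.0% for Tpt1. Markers of CD4 T cells summed to 892 to 2328 CPM in activated and 1049 to 2022 CPM in resting libraries, while summed markers of CD8 T, B, myeloid, NK and erythroid cells reached at most 25.8 CPM. Il2ra, the activation-induced interleukin-2 receptor chain, stood at 57.3, 45.2 and 39.9 CPM in resting and 751, 251 and 385 CPM in activated untreated cells at 0 h, as the labels say. Activated 3 h triptolide replicate 3 stood apart from its group in spike-ins, with ERCC counts at 6.79% of exon counts beside 11.9% and 14.5% in replicates 2 and 4.

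Per kilobase of exon, the elongation machinery dominated the set in resting cells at 0 h. Eef1a1, which delivers aminoacyl-tRNA to the ribosome, stood first at 7009 ± 1200 CPM per kb (SD, n = 3). Eef2, the translocase, followed at 1195 ± 210 CPM per kb and Tpt1, which encodes the translationally controlled tumour protein, at 913 ± 201 CPM per kb, and their spreads did not separate this pair. Lowest was Eif2b3, a subunit of the eIF2 exchange factor, at 1.01 ± 0.341 CPM per kb. In activated cells Eef1a1 again stood first, at 4725 ± 417 CPM per kb, and the RNA helicase gene Eif4a1 stood at 246 ± 92.0 CPM per kb. The 10 elongation and TOP messages together took 3.08%, 2.69% and 2.57% of exon counts in the 3 resting libraries and 2.04%, 2.36% and 1.93% in the activated ones, so the states did not overlap. Most of that share was Eef1a1, which held 3807242 exon counts over all libraries, beside 1070317 for Eef2 and 463995 for Tpt1. The 36 initiation factors took 0.734% of exon counts on average in resting and 0.963% in activated cells.

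**Figure D1:**
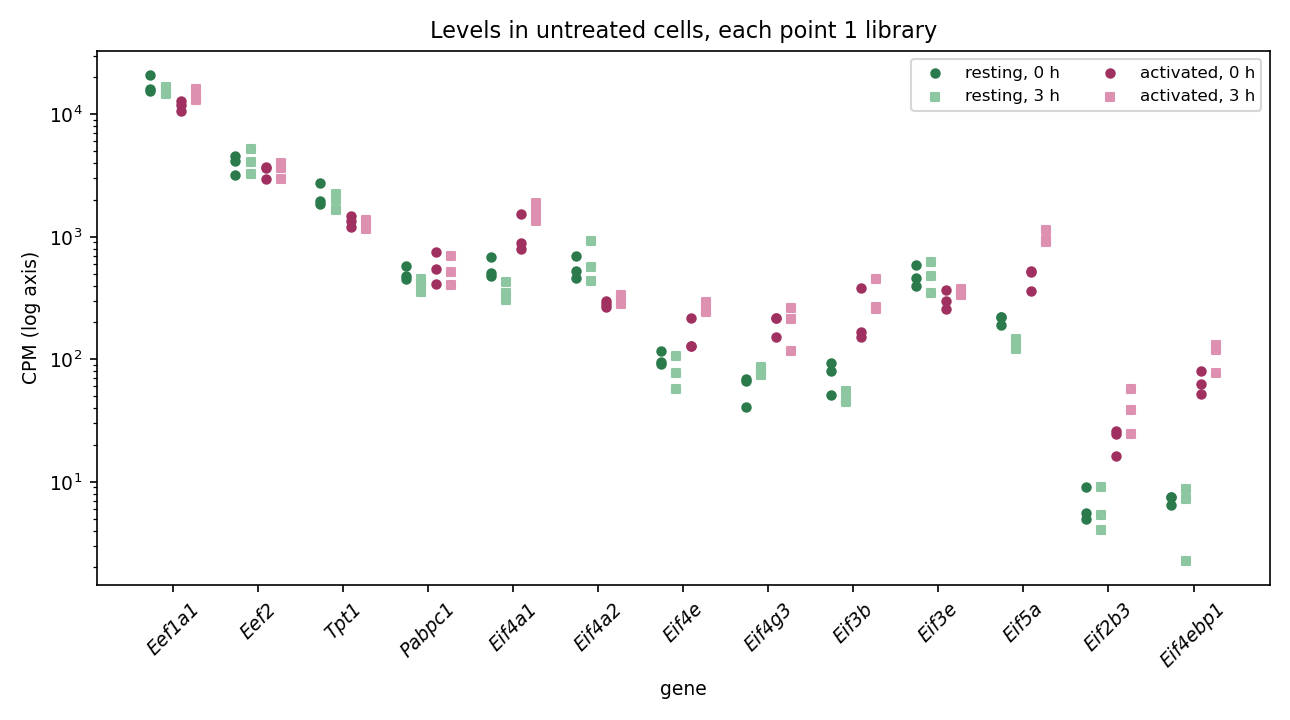
Exon counts scaled to the TMM-adjusted library total (CPM, logarithmic axis) of 13 members in the untreated libraries of resting and activated cells at 0 and 3 h, with a point for each library. Eif4ebp1 and Eif5a lie higher in every activated library than in every resting one at both times, and Tpt1 lies lower.

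At 0 h, the class medians of the difference between activated and resting cells had opposite signs. Of 36 initiation factors, 14 were higher and 4 lower in activated cells, with a median log2 difference of 0.37. Of 10 elongation and TOP messages, none was higher and 2 were lower, with a median of −0.39, and under spike-in scaling none of the 10 was called and the median was −0.18. Over all genes tested, 13.9% were called higher and 12.9% lower, with a median of −0.01, so 2 lower calls in 10 lie near the share of all genes. Here and below, a call is a Benjamini-Hochberg adjusted p under 0.05 over all genes in edgeR's quasi-likelihood test. That model held group means and no replicate number, unless the replicate block is named. Errors of log2 differences are standard errors. Differences are relative to the typical message of each library (TMM scaling) unless called per spike-in.

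Of the 8 eIF4 members 4 were higher and 1 lower at 0 h, and 1 of the 2 4E-BP genes was higher. Eif4ebp1, which encodes the 4E-BP1 repressor of cap binding, had 7.50, 6.52 and 7.48 CPM in resting and 52.0, 79.7 and 62.4 CPM in activated libraries, a rise of 3.06 ± 0.45 (edgeR, adjusted p = 7.68e-08). The scaffold gene Eif4g3 had 40.7, 67.1 and 69.4 CPM in resting and 216, 153 and 219 CPM in activated libraries (log2 difference 1.77 ± 0.46, edgeR adjusted p = 0.00225). In neither gene did the states overlap. The helicase gene Eif4a1 had 683, 483 and 510 CPM in resting and 1523, 889 and 787 CPM in activated cells (0.94 ± 0.23, edgeR adjusted p = 0.000897). The cap-binding gene Eif4e had 117, 91.8 and 94.7 CPM and then 217, 129 and 127 CPM (0.70 ± 0.21, edgeR adjusted p = 0.00861). These also did not overlap, while the second helicase gene went the other way. Eif4a2 had 695, 525 and 462 CPM in resting and 282, 300 and 268 CPM in activated cells, and fell by 0.99 ± 0.24 (edgeR, adjusted p = 0.000982).

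Other role groups were mixed at 0 h. Of the 13 eIF3 subunits 5 were higher and 2 lower, and the falling Eif3e went from 589, 464 and 397 CPM to 297, 368 and 255 CPM (−0.69 ± 0.23, edgeR adjusted p = 0.0182). Among those named after their values were seen, the core subunit genes Eif3c and Eif3b rose by 1.41 ± 0.25 and 1.69 ± 0.46. Of 6 ternary complex and scanning factors 2 rose and 1 fell, the risers being the eIF2 subunit genes Eif2s1 and Eif2s2. Of 5 eIF2B subunits 1 was called, Eif2b3, which rose from a mean of 6.56 to 22.2 CPM. Eif5a, the hypusine-bearing factor that helps ribosomes through difficult peptide bonds, had 221, 191 and 222 CPM in resting and 527, 515 and 360 CPM in activated cells (1.14 ± 0.17, edgeR adjusted p = 8.39e-08), with no overlap.

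The elongation and TOP messages lay lower or overlapped at 0 h. Tpt1 had 2721, 1957 and 1837 CPM in resting and 1481, 1348 and 1212 CPM in activated cells (−0.69 ± 0.21, edgeR adjusted p = 0.00851). Eef1a1 had 20893, 16195 and 15335 CPM and then 11952, 12723 and 10666 CPM (−0.57 ± 0.22, edgeR adjusted p = 0.0484). Neither gene overlapped between states on this scale, and neither was called per spike-in (Tpt1 −0.48, adjusted p = 0.247; Eef1a1 −0.36, adjusted p = 0.321, edgeR). The states overlapped for Eef2, at 3203, 4151 and 4561 against 3742, 3628 and 2952 CPM, and for the poly(A)-binding protein gene Pabpc1, at 479, 449 and 576 against 750, 411 and 542 CPM. Their log2 differences were −0.21 ± 0.23 (adjusted p = 0.539) and 0.21 ± 0.30 (adjusted p = 0.66) in edgeR. The call of Eef1a1 was lost under DESeq2 and without replicate 2 or 4, and the 20 calls among members became 11 without replicate 2 and 11 without replicate 4.

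At 3 h in culture more initiation factors were called between the untreated states than at 0 h. More of all genes were called as well, from 13.9% higher and 12.9% lower at 0 h. The change between the times was not tested, and activated replicate 3 at 0 h was shallow (141028 exon counts). Among the 36, activated cells had 25 higher and 1 lower (median 1.07), while 3 of 10 elongation and TOP messages were higher and 1 lower (median 0.27). All genes stood at 26.3% higher and 27.5% lower, with a median of −0.04 that became 0.60 per spike-in, where 30 of 36 and 6 of 10 members and 40.6% of all genes were higher and no member was lower. Within roles, 8 of 13 eIF3 subunits, 7 of 8 eIF4 members, 4 of 6 ternary complex and scanning factors and 3 of 5 eIF2B subunits were higher. Eif5a had 147, 121 and 133 CPM in resting and 941, 1146 and 899 CPM in activated cells (2.90 ± 0.17, edgeR adjusted p = 2.65e-25). Eif4ebp1 had 8.75, 7.20 and 2.27 CPM and then 76.7, 118 and 132 CPM (4.32 ± 0.45, edgeR adjusted p = 1.1e-13). Both were separated in every library.

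Of the cap-binding complex, Eif4a1 and Eif4e were also higher in activated cells at 3 h. Eif4a1 had 305, 345 and 428 CPM in resting and 1869, 1601 and 1355 CPM in activated cells (2.16 ± 0.23, edgeR adjusted p = 6.75e-13). Eif4e had 57.2, 77.9 and 107 CPM against 296, 251 and 243 CPM (1.69 ± 0.21, edgeR adjusted p = 4.89e-11). Neither overlapped. Eif4a2 was again lower in activated cells, at 333, 282 and 323 CPM against 436, 568 and 916 CPM in resting cells (−1.04 ± 0.23, edgeR adjusted p = 0.000125).

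Within the first class at 3 h the members parted. Pabpc4, a second poly(A)-binding protein gene, had 33.7, 22.5 and 26.5 CPM in resting and 76.0, 68.4 and 99.6 CPM in activated cells (1.58 ± 0.27, edgeR adjusted p = 6.36e-07). Eef1g, a subunit of the exchange factor for Eef1a1, had 667, 599 and 707 CPM against 1017, 1096 and 1078 CPM (0.69 ± 0.19, edgeR adjusted p = 0.00116). Btf3, the beta subunit of the nascent polypeptide-associated complex, was the third riser (0.40 ± 0.17). Tpt1 had 1660, 1982 and 2231 CPM in resting and 1295, 1360 and 1158 CPM in activated cells, a fall of 0.62 ± 0.21 (edgeR, adjusted p = 0.00789). Per spike-in its log2 difference had the other sign, at 0.03. Eef1a1 (−0.12 ± 0.22, adjusted p = 0.689), Eef2 (−0.24 ± 0.23, adjusted p = 0.381) and Pabpc1 (0.43 ± 0.30, adjusted p = 0.227) were not called in edgeR, and their states overlapped.

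Untreated cells were also compared between 3 and 0 h, when activated cells had had 3 h more of both culture and activation, which cannot be told apart here. In activated untreated cells 9 of 36 initiation factors and 3 of 10 elongation and TOP messages were higher at 3 h than at 0 h and none was lower (6.05% of all genes higher, 7.56% lower), with medians of 0.51 and 0.42. Eif5a went from 527, 515 and 360 CPM to 941, 1146 and 899 CPM (1.1 ± 0.17, edgeR adjusted p = 5.25e-07). Eif3d, the eIF3 subunit with a cap-binding surface of its own, went from 258, 135 and 221 CPM to 368, 343 and 386 CPM (0.76 ± 0.18, edgeR adjusted p = 0.00137). Neither gene's times overlapped. Pabpc4 rose by 0.94 ± 0.28 (from a mean of 36.8 to 81.3 CPM), Btf3 by 0.64 ± 0.18 (284 to 445 CPM), Eif4e by 0.69 ± 0.21 (158 to 264 CPM) and Eef1g by 0.53 ± 0.19 (741 to 1064 CPM).

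The most abundant messages of the class were not called over the same 3 h. The log2 differences were 0.29 ± 0.22 for Eef1a1 (adjusted p = 0.443), 0.04 ± 0.23 for Eef2 (adjusted p = 0.95), −0.08 ± 0.21 for Tpt1 (adjusted p = 0.857) and −0.09 ± 0.30 for Pabpc1 (adjusted p = 0.898) in edgeR. Eif4a1 had 0.58 ± 0.23 (adjusted p = 0.0743), and 0.61 (adjusted p = 0.000449) with the replicate number as a block, where the member count went from 12 to 25 in edgeR. The 12 calls became 1 without replicate 4 and 7 without the shallowest pair of libraries. In resting untreated cells, where 3.03% of all genes were higher and 3.36% lower at 3 h, a single member was called. That was Eif5a, which went from 221, 191 and 222 CPM to 147, 121 and 133 CPM (−0.66 ± 0.16, edgeR adjusted p = 0.00595), a call lost under spike-in scaling, without the low-count filter and without replicate 4. The other members had a median of −0.16 in the first class and −0.20 among initiation factors, with Eef1a1 at −0.17, Eef2 at 0.08, Tpt1 at −0.15, Pabpc1 at −0.31, Eif4a1 at −0.63 (adjusted p = 0.0782, edgeR) and Eif4e at −0.31.

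Intron counts, a readout of unspliced RNA, were tested over 10750 genes at 0 h. Of the members 8 were higher in activated cells and none lower, beside 7.92% and 5.6% of genes. They were Eif4ebp1 (log2 difference 4.35), Eif2b3 (2.23), Eif5a (2.07), Eif3c (1.92), Eif3b (1.52), Eif2s2 (1.34), Naca (1.23) and Eef1d (0.95), and none of them holds an annotated snoRNA gene. Intron counts of Eif5a were 8, 7 and 20 in resting and 153, 3 and 30 in activated libraries, and those of Eif4ebp1 were 2, 6 and 8 against 334, 7 and 74. Activated replicate 3, the shallow library, held 102641 intron counts in all, beside 1280327, 1798813 and 2781616 in the resting libraries. Its raw counts of 3 and 7 are therefore not comparable with theirs without scaling for depth. Eif4a1, Eif4a2 and Pabpc4, which carry snoRNA genes in introns, had 12.4, 22.7 and 15 intron counts for each exon count, and none of the 3 was called. Also not called were Eef1a1 (0.56 ± 0.44), Eef2 (0.51 ± 0.87), Pabpc1 (0.71 ± 0.33) and Eif4e (1.06 ± 0.42). Tpt1 had −2.01 ± 1.01 and Eif4a1 −1.98 ± 0.93, neither called, and both hold annotated snoRNA genes, as does Eef2. The 8 calls became 3 without replicate 2 and 13 without replicate 3.

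Transcription was then stopped, and the medians of the classes parted while their members overlapped. After 3 h of triptolide in activated cells, 8 of 10 elongation and TOP messages had risen relative to the typical message and none had fallen (median 0.93), whereas per spike-in none had risen and 6 had fallen (median −0.68). Of 36 initiation factors 9 had risen and 18 had fallen (median −0.64), and per spike-in none had risen and 32 had fallen (median −2.27). Across all genes tested the calls were 21.5% higher and 26.2% lower (median −0.03), and per spike-in 77.7% were lower with a median of −1.68. RNA came from equal numbers of cells, and in bulk samples fewer living cells and less RNA per cell cannot be told apart. Without replicate 3 of the 3 h triptolide group, the library apart in spike-ins, 7 of 10 and 35 of 36 had fallen per spike-in, with medians of −0.95 and −2.47 beside −1.95 over all genes. Leaving out replicate 2, 3 or 4 in every group gave 3, 10 and 2 of the 10 lower per spike-in.

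The level per ERCC count at 3 h, as a percentage of the 0 h mean, had a median of 63.5% over the 10 (range 28.3% to 107%), and 8 kept at least 50%. For the 36 initiation factors the median was 21.2% (6.75% to 114%), with 20 under 25% and 7 at or above 50%. Without replicate 3, the library apart in spike-ins, the medians were 51.8% and 18%, and 6 of 10 and 2 of 36 were at or above 50%, Eef2 and Btf3 no longer among them. The share of exon counts taken by the 10, mostly Eef1a1, stood at 3.85%, 3.58% and 4.03% in the 3 h libraries beside a mean of 2.34% at 0 h. That of the 36 stood at 0.638% on average beside 0.922%.

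The most abundant members of the first class in activated cells gave the following. Tpt1 went from 1851, 1351 and 1289 CPM to 4116, 5240 and 4447 CPM (1.62 ± 0.21, edgeR adjusted p = 1.4e-09), and 75.5%, 179% and 66.8% was left per ERCC. Eef1a1 went from 11445, 16132 and 12641 CPM to 31355, 24616 and 34757 CPM (1.17 ± 0.23, edgeR adjusted p = 1.21e-05), and 67.0%, 98.2% and 60.8% was left. Pabpc1 went from 721, 385 and 426 CPM to 1636, 1873 and 996 CPM (1.55 ± 0.30, edgeR adjusted p = 1.63e-05), and 86.3%, 185% and 43.0% was left. None of the 3 overlapped between times in CPM, and replicate 3 had the most left per ERCC in each. Per spike-in their log2 changes were 0.10 ± 0.27, −0.41 ± 0.23 and 0.06 ± 0.39, none called, and without that replicate −0.49, −0.65 and −0.63.

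Eef2 was less firm. It went from 4587, 4732 and 3808 CPM to 6833, 7176 and 5993 CPM (0.61 ± 0.23, edgeR adjusted p = 0.022), with 43.7%, 85.8% and 31.4% left per ERCC. The times did not overlap, but the call was lost under DESeq2, without replicate 2 or 4, and without replicate 3 of the triptolide group alone (adjusted p = 0.0842 in edgeR), and per spike-in Eef2 fell by 0.90 ± 0.33. The members of the class that were not called were Naca, the alpha subunit of the nascent polypeptide-associated complex (−0.24 ± 0.21, adjusted p = 0.369), and Eef1d, an exchange factor subunit (−0.29 ± 0.26, adjusted p = 0.354), in edgeR. Naca had 29.3%, 41.9% and 17.9% left, among the least of the 10.

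eIF2B fell furthest as a group in activated cells. All 5 subunits were lower after triptolide, with a median of −1.66, and their median level left was 10.2%. Eif2b1 went from 22.8, 31.0 and 26.6 CPM to 5.18, 5.22 and 4.84 CPM (−2.39 ± 0.31, edgeR adjusted p = 1.31e-09), with 5.55%, 10.4% and 4.25% left. Eif2b4 went from 18.99, 21.3 and 18.8 CPM to 5.18, 3.48 and 4.84 CPM (−2.04 ± 0.31, edgeR adjusted p = 9.67e-08). Neither gene's times overlapped. All 5 were also lower per spike-in, with a median of −3.31. The 3 h libraries held 2176699, 672633 and 1549083 exon counts, so here and below levels of a few CPM rest on few reads.

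The cap-binding members fell as well. Eif4a1 went from 1291, 1105 and 847 CPM to 562, 440 and 386 CPM (−1.22 ± 0.23, edgeR adjusted p = 8.04e-06), with 14.3%, 20.9% and 8.04% left. Eif4e went from 137, 128 and 146 CPM to 82.9, 62.6 and 77.5 CPM (−0.86 ± 0.21, edgeR adjusted p = 0.000597), with 17.1%, 24.1% and 13.1% left. Neither overlapped, and both lay below the level left of every elongation and TOP message by their means. The scaffold gene Eif4g3 was the opposite, at 277, 125 and 178 CPM before and 681, 675 and 621 CPM after (1.77 ± 0.44, edgeR adjusted p = 0.000612), and Eif4ebp2, the second 4E-BP gene, went from a mean of 34.4 to 72.0 CPM (0.98 ± 0.38, edgeR adjusted p = 0.0253). Per spike-in these were 0.18 ± 0.51 and −0.43 ± 0.50, and neither was called.

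The 13 eIF3 subunits split, with 3 higher, 5 lower and a median of −0.13. The 3 that rose relative to the typical message, Eif3h (0.97 ± 0.16), Eif3f (0.87 ± 0.20) and Eif3k (0.75 ± 0.22), had −0.62, −0.63 and −0.84 per spike-in. Eif3d went from 193, 287 and 238 CPM to 59.3, 81.8 and 71.8 CPM (−1.78 ± 0.19, edgeR adjusted p = 2.08e-12), and Eif3g fell by 1.44 ± 0.21. Beyond eIF3, Eif6, which keeps the large ribosomal subunit from joining too early, fell by 1.93 ± 0.28 and the helicase cofactor gene Eif4h by 1.75 ± 0.23. Eif5a and Eif1ax, a scanning factor gene, rose by 0.82 ± 0.16 and 0.52 ± 0.15 on this scale and had −0.75 and −1.06 per spike-in. These members of the eIF3, scanning and Eif5a groups were named after their values were seen.

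**Figure D2:**
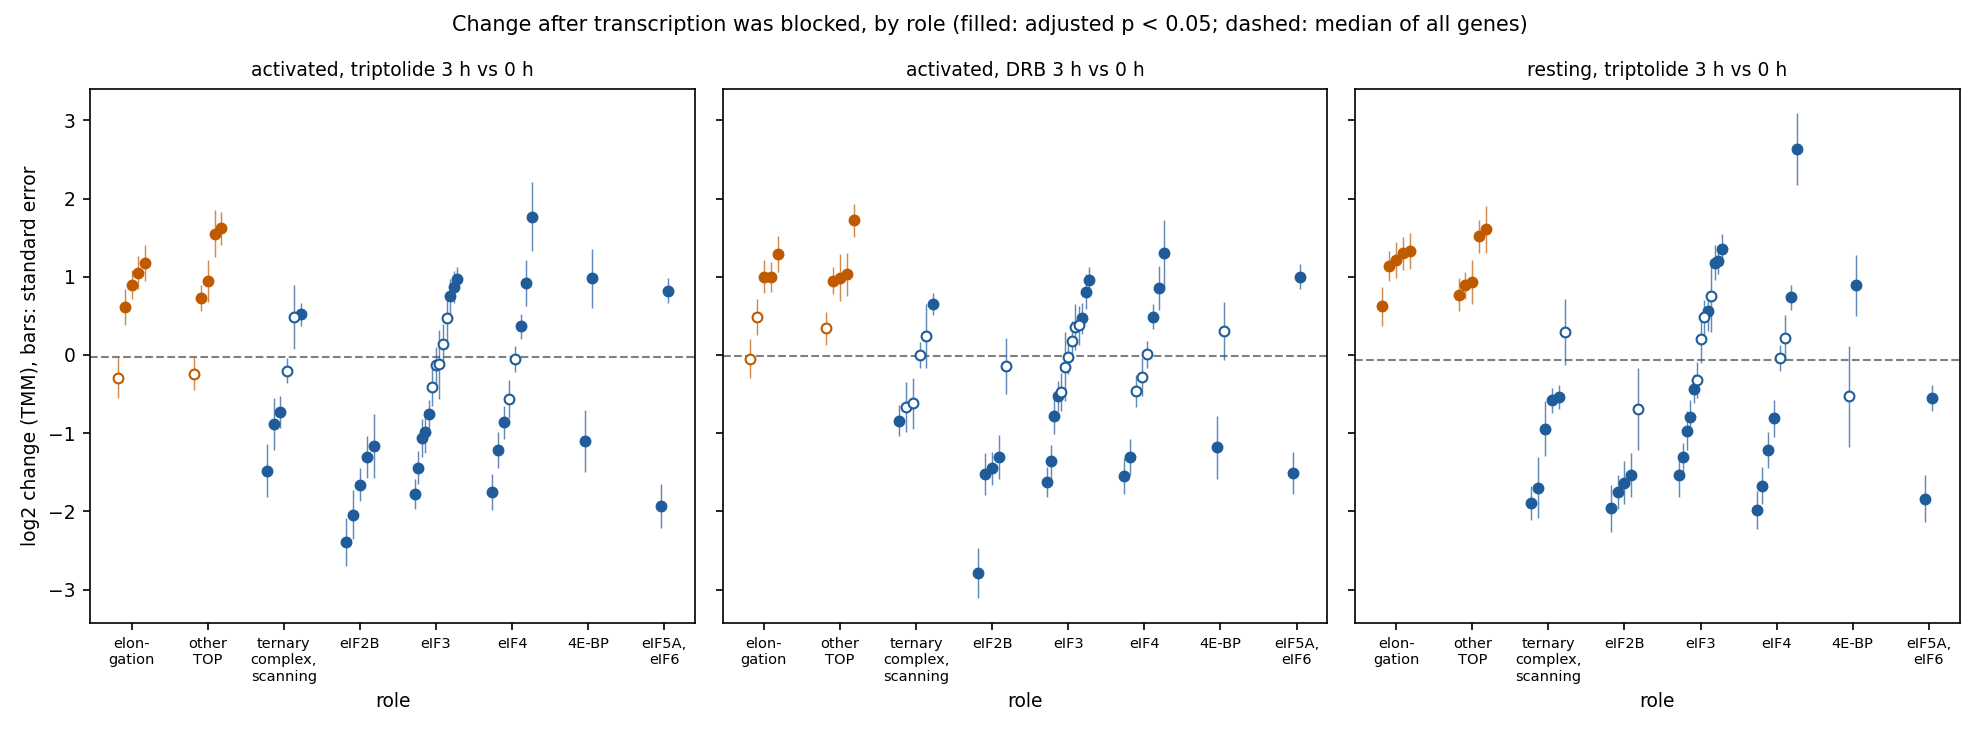
Log2 change from 0 to 3 h (TMM scaling) of each member, in strips by role, after triptolide in activated cells, DRB in activated cells and triptolide in resting cells; filled points are called at an adjusted p under 0.05 and the dashed line is the median of all genes tested. The 5 eIF2B subunits lie below the line in all 3 panels and most elongation and TOP messages above it, although per spike-in no member rose in any of the 3 arrests.

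DRB, which stops transcription at another step, was followed in activated cells with its own 0 h libraries. Of 10 elongation and TOP messages 7 rose and none fell (median 1.00), and per spike-in none rose and 5 fell (median −0.58; 2 fell without replicate 4). Of 36 initiation factors 8 rose and 13 fell (median −0.21), and per spike-in none rose and 33 fell (median −1.74). The background over all genes was 17.9% higher and 21.9% lower, and per spike-in 78.2% were lower with a median of −1.54. The median level left was 66.8% for the first class (30.9% to 111%) and 30% for the second (4.87% to 90.8%), with 15 of 36 initiation factors under 25%.

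After DRB, Tpt1 went from 1480, 1046 and 1331 CPM to 3795, 4643 and 4275 CPM (1.72 ± 0.21, edgeR adjusted p = 4.94e-10), with 129%, 94.0% and 109% left per ERCC. Eef1a1 went from 13994, 14950 and 12442 CPM to 24722, 46841 and 29830 CPM (1.29 ± 0.23, edgeR adjusted p = 3.4e-06), with 78.3%, 88.1% and 70.8% left. Both were separated between times, and per spike-in neither was called (0.15 and −0.34). Pabpc1 rose by 0.99 ± 0.30 (adjusted p = 0.00544), from 630, 413 and 549 CPM to 1341, 712 and 1114 CPM, and had −0.48 per spike-in. Eef2 had 0.49 ± 0.23 (edgeR adjusted p = 0.0788) without and 0.48 (adjusted p = 0.00609) with the replicate block, and per spike-in it fell by 1.05.

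Among initiation factors DRB again took eIF2B lowest, with 4 of 5 subunits called lower and a median of 12.3% left. Eif2b4 went from 20.8, 24.2 and 22.2 CPM to 2.20, 3.80 and 4.07 CPM (−2.79 ± 0.32, edgeR adjusted p = 9.73e-11), with 4.28%, 4.39% and 5.93% left. The 3 h DRB libraries held 2232615, 1087498 and 1550298 exon counts, so its levels there rest on few reads. Eif3d went from 269, 226 and 218 CPM to 71.0, 78.5 and 82.2 CPM (−1.62 ± 0.19, edgeR adjusted p = 6.04e-11). Neither overlapped. Eif4a1 fell by 1.30 ± 0.23 (adjusted p = 4.3e-06), from 1496, 970 and 759 CPM to 488, 466 and 358 CPM, with 20.1%, 11.4% and 11.1% left. Eif4e had −0.46 ± 0.21 (edgeR adjusted p = 0.0665), and −0.44 (adjusted p = 0.0315) with the replicate block, and 30.7%, 15.2% and 30% of it was left. The largest relative rises were of Eif4g3 (1.30 ± 0.43, from 204, 122 and 208 to 590, 188 and 540 CPM, with overlap) and Eif5a (1.00 ± 0.16, from 437, 459 and 411 to 735, 911 and 969 CPM, without overlap), which had −0.14 and −0.58 per spike-in.

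In resting cells all 10 elongation and TOP messages rose relative to the typical message after 3 h of triptolide (median 1.18), while per spike-in none rose and 5 fell (median −0.53; 2 fell without replicate 4). Of 36 initiation factors 7 rose and 20 fell (median −0.56), and per spike-in none rose and 30 fell (median −2.29). For genes as a whole the calls were 26.6% higher and 30.3% lower, and per spike-in 75.5% were lower with a median of −1.77. The median level left was 69.2% in the first class (48.1% to 92.7%), with 9 of 10 at or above 50%, and 21.2% in the second, with 22 of 36 under 25%. The share of exon counts held by the 10 messages, mostly Eef1a1, reached 4.93%, 4.48% and 4.87%, from a mean of 2.81%.

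The leading messages of resting cells were separated between times on the relative scale. Eef2 went from 3549, 4213 and 5122 CPM to 11875, 9410 and 11122 CPM (1.33 ± 0.23, edgeR adjusted p = 9.4e-07), with 109%, 60.5% and 69.2% left per ERCC. Tpt1 went from 2428, 1851 and 1937 CPM to 5618, 6493 and 5693 CPM (1.52 ± 0.21, edgeR adjusted p = 3.6e-09), with 104%, 84.5% and 71.7% left. Pabpc1 went from 464, 448 and 455 CPM to 1198, 1700 and 1280 CPM (1.61 ± 0.30, edgeR adjusted p = 5.44e-06), with 102%, 102% and 74.2% left. None overlapped between times, and per spike-in the changes were −0.33, −0.20 and −0.11, none of them called. Eef1a1 rose by 1.22 ± 0.23 (adjusted p = 3.99e-06), from 19551, 15657 and 18388 CPM to 39905, 36938 and 47776 CPM, and fell by 0.50 ± 0.23 per spike-in (adjusted p = 0.0444) in edgeR, with 86.2%, 56.0% and 70.1% left.

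Initiation factors of resting cells fell mostly in the eIF2B, scanning and cap-binding groups. Of eIF2B 4 of 5 subunits, of ternary complex and scanning factors 5 of 6, and of the eIF4 group 4 of 8 were lower, and 2 of the 8 were higher. Eif4a1 went from 634, 438 and 571 CPM to 136, 130 and 149 CPM (−1.98 ± 0.24, edgeR adjusted p = 8.54e-11), with 9.55%, 6.41% and 7.10% left. Eif2b1 went from 29.2, 21.6 and 29.1 CPM to 6.65, 4.94 and 8.45 CPM (−1.96 ± 0.30, edgeR adjusted p = 5.04e-08), with 9.63%, 5.01% and 8.32% left. Eif4e went from 125, 87.1 and 98.4 CPM to 31.6, 23.7 and 40.7 CPM (−1.67 ± 0.24, edgeR adjusted p = 6.33e-09), with 11.7%, 6.16% and 10.3% left. None of the 3 overlapped. Eif4g3 went the other way, from 34.0, 64.5 and 60.6 to 224, 417 and 341 CPM (2.63 ± 0.46, edgeR adjusted p = 1.64e-06; 0.91 ± 0.53 per spike-in, not called), and Eif3f rose from 160, 151 and 152 to 381, 416 and 383 CPM (1.35 ± 0.20, edgeR adjusted p = 1.71e-08; −0.36 per spike-in).

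The medians of the classes already differed at 1 h of triptolide, while their members overlapped; for that time levels per ERCC are given without a test and the resting group has 2 libraries, as replicate 3 was left out for its depth. The median level left of the 10 elongation and TOP messages was 82.8% in activated and 90.9% in resting cells, and all 10 were at or above 50% in both. Of the 36 initiation factors the medians were 56.3% and 55.6%, and those of eIF2B were 30.6% and 31.1%. Eif2b1 had 19.1%, 23.4% and 22.8% left in activated and 23.5% and 21% in resting libraries, and Eif4e had 45.2%, 43.2% and 47.0% and then 28.8% and 31.9%. Eef1a1 stood at 87.0%, 93.3% and 91.3% in activated and 96.0% and 91.2% in resting libraries. Every library was lower for Eif2b1 and Eif4e than for Eef1a1, whereas Tpt1 spread widely, at 99.2%, 54.1% and 102% in activated and 142% and 91.3% in resting cells. With CHX added for that hour the eIF2B median was 73.6% in activated and 92.4% in resting cells, and with harringtonine 83.4% and 99.2%.

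**Figure D3:**
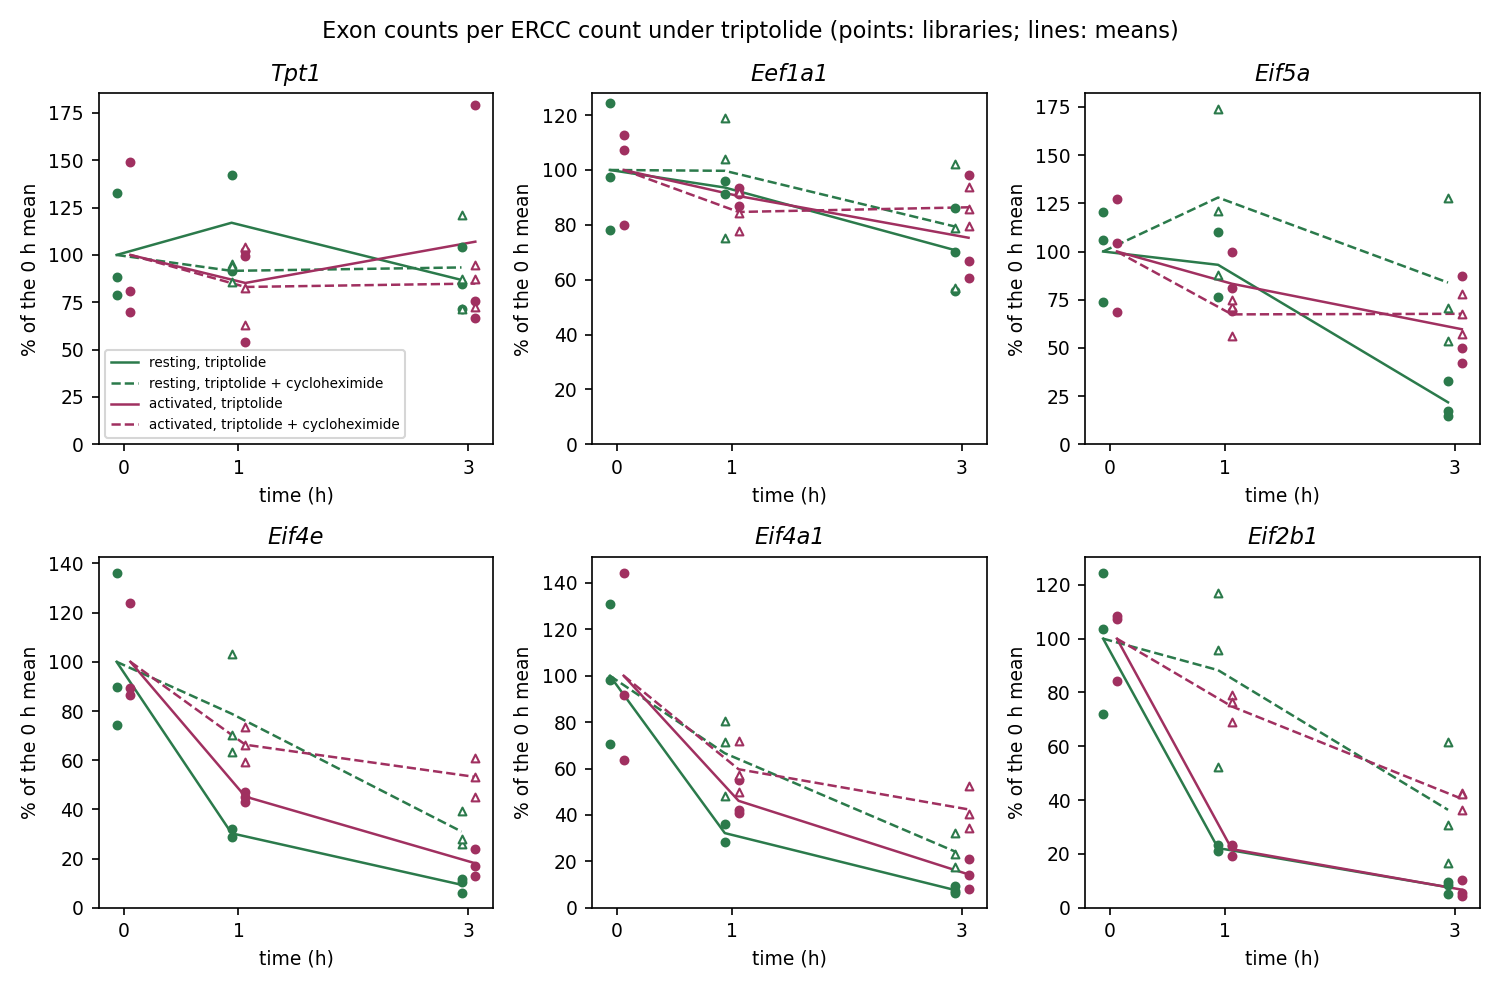
Level per ERCC count, as a percentage of the 0 h mean, of Tpt1, Eef1a1, Eif5a, Eif4e, Eif4a1 and Eif2b1 at 0, 1 and 3 h of triptolide with and without CHX in activated and resting cells; points are libraries and lines are means, and resting triptolide at 1 h has 2 libraries. At 3 h without CHX, Eif4a1 and Eif2b1 lie lower in every library than Tpt1 and Eef1a1 in both states.

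Whether decay differed between activated and resting cells was tested as the difference of the 2 triptolide changes. Of the 46 members 4 were called, beside 4.07% of all genes with a higher change in activated cells and 2.4% with a lower one. Eif5a had the higher change in activated cells (0.82 against −0.55, a difference of 1.37 ± 0.23, edgeR adjusted p = 4.73e-05), with 49.9%, 87.2% and 42.0% left per ERCC against 33.1%, 14.9% and 17.4% in resting cells. The eIF2 alpha subunit gene Eif2s1 (1.16 ± 0.29, edgeR adjusted p = 0.00722) and Eif1ax (1.07 ± 0.21, edgeR adjusted p = 0.000478) also had higher changes in activated cells, with 20.5% of Eif2s1 left on average against 7.81%. Naca had a lower change (−0.24 against 0.77, a difference of −1.01 ± 0.30, edgeR adjusted p = 0.0273), with 29.3%, 41.9% and 17.9% left against 62.8%, 37.2% and 55.0%. Activated and resting libraries overlapped for Naca and not for Eif5a.

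The other leading members were not called in that difference. It was −0.04 ± 0.31 for Eef1a1, −0.72 ± 0.32 for Eef2, 0.10 ± 0.29 for Tpt1, −0.06 ± 0.42 for Pabpc1, 0.76 ± 0.33 for Eif4a1 and 0.81 ± 0.32 for Eif4e. The 4 calls became 2 without replicate 2, 2 without replicate 4, 3 without replicate 3, and 0 per spike-in without replicate 3 of the 3 h triptolide group. Naca was also lost without that library alone (adjusted p = 0.0815), and per spike-in (adjusted p = 0.271), in edgeR.

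CHX was then added to the arrested cells. The comparison with triptolide alone uses the same 3 h triptolide libraries as the decay, so values are set side by side only. In activated cells 19 of 36 initiation factors were higher and 5 lower with CHX (median 0.76), and per spike-in 23 were higher and none lower (median 1.44). Of 10 elongation and TOP messages 1 was higher and 3 lower (median −0.33), and per spike-in 2 were higher and none lower (median 0.31). Without replicate 3 of the triptolide group the counts per spike-in were 26 of 36 and 3 of 10 higher, with medians of 1.74 and 0.54. The whole table stood at 15.8% higher and 11.5% lower, and per spike-in 34.6% were higher with a median of 0.62. The median level left of the 36 was 54.9% with CHX, with none under 25%, beside 21.2% without.

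Each eIF2B subunit was higher with CHX in activated cells. Their median log2 difference was 1.73, and the median level left was 48.3% beside 10.2%. Eif2b1 had 5.18, 5.22 and 4.84 CPM without and 20.4, 17.96 and 24.1 CPM with CHX (2.05 ± 0.31, edgeR adjusted p = 2.36e-07), and 42.8%, 36.4% and 42.4% was left. Eif3d had 59.3, 81.8 and 71.8 CPM without and 283, 299 and 280 CPM with CHX (2.04 ± 0.19, edgeR adjusted p = 3.82e-14), and its mean level left was 63.5% ± 7.05 (SD, n = 3) beside 10.9% ± 6.52. Neither gene overlapped. Eif4a1 had 562, 440 and 386 CPM without and 1048, 838 and 827 CPM with CHX (0.97 ± 0.23, edgeR adjusted p = 0.000731), and Eif4e had 82.9, 62.6 and 77.5 CPM and then 151, 137 and 134 CPM (0.90 ± 0.21, edgeR adjusted p = 0.000805), again without overlap.

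Members that were lower with CHX included several TOP messages. Tpt1 had 4116, 5240 and 4447 CPM without and 2427, 2730 and 2420 CPM with CHX (−0.87 ± 0.21, edgeR adjusted p = 0.000796). Pabpc1 had 1636, 1873 and 996 CPM and then 765, 373 and 547 CPM (−1.42 ± 0.30, edgeR adjusted p = 0.000174). Neither overlapped, and per spike-in neither was called (−0.34 and −0.93). Naca was the member of its class that was higher, from 422, 324 and 316 to 561, 732 and 682 CPM (0.89 ± 0.21, edgeR adjusted p = 0.000865), without overlap. Eef2 had −0.21 ± 0.23 (adjusted p = 0.513), and Eef1a1 had −0.44 ± 0.22 (adjusted p = 0.127) without and −0.47 (adjusted p = 0.0138) with the replicate block, in edgeR. Among initiation factors the largest falls were of Eif4ebp2, from 54.7, 120 and 41.2 to 31.8, 17.96 and 18.2 CPM (−1.59 ± 0.38, edgeR adjusted p = 0.000902), and of Eif4g2, a scaffold relative that cannot bind Eif4e, from 205, 238 and 210 to 142, 107 and 127 CPM (−0.79 ± 0.28, edgeR adjusted p = 0.0297). Per spike-in these were −1.15 and −0.22, neither called, and without replicate 3 of the triptolide group Eif4g2 had 0.29. The 28 calls became 16 without replicate 4.

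Harringtonine was added to triptolide in activated cells as well. Of 36 initiation factors 15 were higher and 4 lower (median 0.36), and per spike-in 17 and 1 (median 0.73). Of 10 elongation and TOP messages 1 was higher and 1 lower (median −0.13), and per spike-in 2 and 1 (median 0.21). Without replicate 3 of the triptolide group, per spike-in 22 of 36 and 2 of 10 were higher and none lower, with medians of 1.07 and 0.46, and without replicate 4 in every group 10 of 36 were higher. All genes stood at 14.8% higher and 9.84% lower, and per spike-in 21.5% were higher. All 5 eIF2B subunits were higher, with a median of 1.77, and Eif2b4 had 5.18, 3.48 and 4.84 CPM without and 30.8, 23.8 and 26.3 CPM with harringtonine (2.49 ± 0.31, edgeR adjusted p = 3.83e-10). Eif3d had 59.3, 81.8 and 71.8 CPM without and 350, 348 and 334 CPM with it (2.30 ± 0.19, edgeR adjusted p = 1.21e-16). Both were separated in every library.

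The cap-binding members were not called with harringtonine. Eif4a1 had 562, 440 and 386 CPM without and 531, 437 and 352 CPM with it (−0.07 ± 0.23, edgeR adjusted p = 0.853), and 17.3% ± 4.31 (SD, n = 3) was left beside 42.4% ± 9.11 with CHX. Eif4e had 0.25 ± 0.22 (edgeR adjusted p = 0.431). Both genes overlapped between these groups, and the difference between CHX and harringtonine was not tested. Eef1d was higher, from 141, 132 and 170 to 288, 374 and 277 CPM (1.08 ± 0.26, edgeR adjusted p = 0.000825), and Pabpc1 was lower, from 1636, 1873 and 996 to 685, 501 and 529 CPM (−1.39 ± 0.30, edgeR adjusted p = 0.00022). Eif4ebp2 fell to 19.01, 15.9 and 10.7 CPM (−2.16 ± 0.41, edgeR adjusted p = 2.85e-05) and Eif4g2 to 98.3, 88.7 and 112 CPM (−1.12 ± 0.29, edgeR adjusted p = 0.00211). Eef1a1 (−0.45, adjusted p = 0.136), Eef2 (−0.11, adjusted p = 0.764) and Tpt1 (−0.47, adjusted p = 0.0871) were not called in edgeR.

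In DRB-arrested activated cells CHX gave 12 higher and 2 lower among the 36 initiation factors (median 0.31; per spike-in 20 and 0, median 1.00). Of 10 elongation and TOP messages none was higher and 5 lower (median −0.49; per spike-in 1 and 0, median 0.29). Across all genes tested the calls were 10.5% higher and 7.14% lower, and per spike-in 29.6% were higher. Of eIF2B 4 of 5 subunits were higher, with Eif2b4 at 2.20, 3.80 and 4.07 CPM without and 12.6, 20.7 and 19.9 CPM with CHX (2.43 ± 0.35, edgeR adjusted p = 1.83e-07). Eif3d had 71.0, 78.5 and 82.2 CPM without and 203, 277 and 303 CPM with CHX (1.76 ± 0.19, edgeR adjusted p = 2.97e-11). Neither overlapped, and Eif4a1 was also higher, from 488, 466 and 358 to 1186, 732 and 765 CPM (1.03 ± 0.23, edgeR adjusted p = 0.00055).

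TOP messages lay lower when CHX joined DRB. Tpt1 had 3795, 4643 and 4275 CPM without and 2034, 2075 and 2099 CPM with CHX (−1.03 ± 0.21, edgeR adjusted p = 0.000125). Pabpc1 had 1341, 712 and 1114 CPM and then 568, 395 and 499 CPM (−1.11 ± 0.30, edgeR adjusted p = 0.00528). Eef1a1 had 24722, 46841 and 29830 CPM and then 14776, 24103 and 19726 CPM (−0.79 ± 0.22, edgeR adjusted p = 0.00778). None of these overlapped, and per spike-in they were −0.28, −0.47 and 0.04, none called. Eif3h (−0.52 ± 0.16) and Eif4g2 (−0.86 ± 0.29) were the lower initiation factors, at 0.21 and −0.22 per spike-in. Eef2 (−0.21, adjusted p = 0.563) and Eif4e (0.26, adjusted p = 0.419) were not called in edgeR. The 19 calls became 9 without replicate 4, and 9 with only the libraries compared.

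Harringtonine added to DRB gave 13 higher and 4 lower of 36 initiation factors (median 0.24; per spike-in 20 and 0, median 0.86) and 1 higher and 1 lower of 10 elongation and TOP messages (median −0.25; per spike-in 2 and 0, median 0.45). The background over all genes was 11.3% higher and 7.37% lower, and per spike-in 25.3% were higher. Eif2b4 had 2.20, 3.80 and 4.07 CPM without and 27.6, 28.0 and 23.4 CPM with harringtonine (3.03 ± 0.32, edgeR adjusted p = 5.08e-12). Eif3g, another eIF3 subunit gene, had 61.6, 17.7 and 52.1 CPM and then 220, 219 and 245 CPM (2.31 ± 0.21, edgeR adjusted p = 1.05e-14). Both were separated. Eef1d was higher (0.73 ± 0.25, from a mean of 188 to 307 CPM) and Eef1a1 lower (−0.62 ± 0.22, from 33798 to 21959 CPM, with 0.10 per spike-in), and Eif4ebp2 (−1.17 ± 0.39) and Eif4g2 (−0.80 ± 0.29) were lower.

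Other leading members were not called when harringtonine joined DRB. Eif4a1 had 0.07 ± 0.23 (adjusted p = 0.884), Eif4e −0.11 ± 0.21 (adjusted p = 0.766) and Eef2 −0.02 ± 0.23 (adjusted p = 0.966) in edgeR. Tpt1 had −0.47 ± 0.21 (adjusted p = 0.1) and Pabpc1 −0.73 ± 0.30 (adjusted p = 0.0754), and with the replicate block these were −0.47 (adjusted p = 0.0389) and −0.71 (adjusted p = 0.000959) in edgeR. The 19 calls became 11 without replicate 2, 10 without replicate 4 and 8 with only the libraries compared.

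In resting cells CHX added to triptolide gave 16 higher and 5 lower of 36 initiation factors (median 0.53; per spike-in 25 and 0, median 1.43). Of 10 elongation and TOP messages none was higher and 7 lower (median −0.72; per spike-in 1 and 0, median 0.19). For genes as a whole the calls were 18.8% higher and 16.4% lower, and per spike-in 46% were higher with a median of 0.86. Eif6 had 31.6, 37.5 and 44.6 CPM without and 179, 111 and 135 CPM with CHX (1.87 ± 0.30, edgeR adjusted p = 6.17e-07). Eif2b5, the catalytic eIF2B subunit, had 36.6, 27.6 and 37.7 CPM and then 128, 104.9 and 126 CPM (1.82 ± 0.22, edgeR adjusted p = 3.05e-10). Neither overlapped, and the median level left of eIF2B was 61.3% with CHX beside 11.4% without. Eif4a1 had 136, 130 and 149 CPM and then 231, 222 and 246 CPM (0.75 ± 0.24, edgeR adjusted p = 0.01), and Eif4e 31.6, 23.7 and 40.7 CPM and then 53.1, 62.5 and 56.6 CPM (0.83 ± 0.24, edgeR adjusted p = 0.00495), also without overlap.

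The first class lay lower with CHX in resting cells. Pabpc1 had 1198, 1700 and 1280 CPM without and 406, 629 and 526 CPM with CHX (−1.42 ± 0.30, edgeR adjusted p = 0.000144). Btf3 had 691, 641 and 794 CPM and then 353, 358 and 418 CPM (−0.91 ± 0.17, edgeR adjusted p = 1.97e-05). Tpt1 had 5618, 6493 and 5693 CPM and then 3271, 4221 and 2897 CPM (−0.78 ± 0.21, edgeR adjusted p = 0.00211). None overlapped, and per spike-in they were −0.56, −0.01 and 0.11, none called. Eef1a1 (−0.74 ± 0.22, from a mean of 41540 to 24923 CPM) and Eef2 (−0.70 ± 0.23, from 10802 to 6652 CPM) were lower and had 0.17 and 0.22 per spike-in. Among initiation factors the largest falls were of Eif3f (−0.93 ± 0.20, from 393 to 207 CPM) and Eif3j1, a loosely held eIF3 subunit gene (−0.86 ± 0.32, from 31.1 to 17.6 CPM), with −0.06 and 0.08 per spike-in. Naca had −0.48 ± 0.21 (adjusted p = 0.0666), and −0.47 (adjusted p = 0.00565) with the replicate block, in edgeR. The 28 calls became 15 without replicate 4.

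Harringtonine added to triptolide in resting cells gave 14 higher and 3 lower of 36 initiation factors (median 0.41; per spike-in 18 and 0, median 1.02) and 0 higher and 3 lower of 10 elongation and TOP messages (median −0.47; per spike-in 1 and 0, median 0.10). The whole table stood at 14.6% higher and 9.44% lower, and per spike-in 26.8% were higher. Eif3d had 86.4, 67.1 and 64.6 CPM without and 308, 225 and 244 CPM with harringtonine (1.85 ± 0.19, edgeR adjusted p = 1.45e-12). Eif2b4 had 13.3, 7.90 and 6.92 CPM and then 30.5, 28.6 and 29.3 CPM (1.74 ± 0.28, edgeR adjusted p = 9.22e-07). Both were separated. Pabpc1 (−1.11 ± 0.30, from a mean of 1392 to 647 CPM), Tpt1 (−0.63 ± 0.21, from 5934 to 3826 CPM), Eif4ebp2 (−1.67 ± 0.42, from 44.2 to 14.1 CPM) and Eif4g2 (−0.84 ± 0.30, from 126 to 69.5 CPM) were lower, with −0.55, −0.07, −0.99 and −0.26 per spike-in.

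Eif4a1 (−0.18 ± 0.24, adjusted p = 0.625), Eif4e (0.44 ± 0.25, adjusted p = 0.193) and Eef2 (−0.36 ± 0.23, adjusted p = 0.258) were not called in this resting comparison, and Eef1a1 had −0.48 ± 0.22 (adjusted p = 0.108) without and −0.47 (adjusted p = 0.0161) with the replicate block, in edgeR. With that block 33 members were called in place of 20, and without replicate 4, 10.

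The response of arrested cells to CHX was compared between states, as the difference of the 2 CHX differences, each of which rests on the triptolide libraries above. Called were 0.102% of genes with a larger difference in activated cells and 0.186% with a smaller one, and 2 members. Eif5a had 869, 812 and 892 CPM without and 599, 719 and 610 CPM with CHX in activated cells, and 171, 110 and 132 CPM without and 330, 248 and 274 CPM with CHX in resting cells. On this scale the CHX difference was −0.42 in activated and 1.06 in resting cells, and the difference between them was −1.47 ± 0.23 (edgeR adjusted p = 7.37e-05). Per spike-in it was 0.19 in activated cells (0.56 without replicate 3 of the triptolide group) and 1.97 in resting cells. Naca went the other way, with 1.37 ± 0.30 (edgeR adjusted p = 0.0147).

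None of the other members passed in that comparison of states. The difference was 0.29 ± 0.31 for Eef1a1, 0.49 ± 0.32 for Eef2, −0.09 ± 0.29 for Tpt1, 0.00 ± 0.42 for Pabpc1, 0.22 ± 0.33 for Eif4a1 and 0.07 ± 0.32 for Eif4e. Per spike-in neither member was called (adjusted p = 0.084 for Eif5a and 0.257 for Naca in edgeR). The 2 calls became 4 with the replicate block, 1 without replicate 2, 0 without replicate 4 and 1 without replicate 3 of the activated triptolide group, where Naca was lost.

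CHX or harringtonine alone for 3 h, with transcription running, was compared with untreated cells of the same time. The 2 inhibitors share these untreated libraries. In activated cells with CHX, 9 of 10 elongation and TOP messages were lower and none higher (median −0.76; per spike-in 1 lower, median −0.28), and 18 of 36 initiation factors were lower and 2 higher (median −0.67; per spike-in 2 and 2, median −0.18). All genes stood at 15% higher and 15% lower, with a median of −0.01 that was 0.47 per spike-in, where 25.2% were higher and 2.8% lower. Eif5a had 941, 1146 and 899 CPM untreated and 363, 420 and 375 CPM with CHX (−1.37 ± 0.16, edgeR adjusted p = 1.79e-10), and Eif4ebp1 had 76.7, 118 and 132 CPM and then 19.04, 31.7 and 32.4 CPM (−1.97 ± 0.36, edgeR adjusted p = 1.05e-05). Both were separated, and both were also lower per spike-in (−0.88 and −1.52).

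The elongation messages of activated cells were lower with CHX throughout. Eef1g had 1017, 1096 and 1078 CPM untreated and 466, 612 and 422 CPM with CHX (−1.09 ± 0.19, edgeR adjusted p = 2.96e-06). Eef1a1 had 14076, 15966 and 13088 CPM and then 6272, 9706 and 5760 CPM (−0.99 ± 0.22, edgeR adjusted p = 0.000324). Neither overlapped, and per spike-in they were −0.62 (called) and −0.52 (adjusted p = 0.0812, edgeR). Pabpc4 (−1.07 ± 0.26, from a mean of 81.3 to 38.6 CPM), Pabpc1 (−0.77 ± 0.30, 541 to 317 CPM) and Eef2 (−0.56 ± 0.23, 3541 to 2395 CPM, adjusted p = 0.0499 in edgeR and lost under most alternatives) were lower, with −0.60, −0.28 and −0.07 per spike-in. Tpt1 was the member of the class not called (−0.31 ± 0.21, adjusted p = 0.284, edgeR).

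Within the eIF4 group of activated cells the helicase genes parted. Eif4a2 had 333, 282 and 323 CPM untreated and 593, 654 and 496 CPM with CHX (0.89 ± 0.23, edgeR adjusted p = 0.00187). Eif4e had 296, 251 and 243 CPM and then 166, 185 and 120 CPM (−0.75 ± 0.20, edgeR adjusted p = 0.0023; −0.27 per spike-in). Neither overlapped. Eif4a1 had −0.53 ± 0.22 (adjusted p = 0.0663), and −0.52 (adjusted p = 0.000957) with the replicate block, in edgeR. Eif5, the GTPase activator of eIF2, was the second riser (0.50 ± 0.16, from a mean of 766 to 1081 CPM). The 29 calls became 12 without replicate 4.

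Harringtonine alone in activated cells gave 8 of 10 elongation and TOP messages lower and none higher (median −0.77; per spike-in 1 lower, median −0.38), and 19 of 36 initiation factors lower and 2 higher (median −0.62; per spike-in 4 and 2, median −0.22). Across all genes tested the calls were 15.5% higher and 15.5% lower, and per spike-in 20.4% and 3.63%. Eif4ebp1 had 76.7, 118 and 132 CPM untreated and 21.1, 29.3 and 30.4 CPM with harringtonine (−2.0 ± 0.36, edgeR adjusted p = 7.25e-06). Eif3c had 1211, 828 and 1016 CPM and then 443, 334 and 408 CPM (−1.37 ± 0.24, edgeR adjusted p = 5.29e-06). Both were separated and both were lower per spike-in (−1.64 and −0.98).

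Further members of activated cells under harringtonine gave means as follows. Pabpc4 went from 81.3 to 40.6 CPM (−1.0 ± 0.26), Eef1g from 1064 to 535 CPM (−0.99 ± 0.19), Eef1a1 from 14377 to 7536 CPM (−0.93 ± 0.22) and Tpt1 from 1271 to 875 CPM (−0.54 ± 0.21), with −0.63, −0.62 (called), −0.55 and −0.15 per spike-in. Eif4e went from 264 to 159 CPM (−0.73 ± 0.20) and Eif4a1 from 1608 to 1041 CPM (−0.63 ± 0.23), with −0.34 and −0.23 per spike-in, while Eif4a2 rose from 313 to 594 CPM (0.93 ± 0.23) and Eif5 from 766 to 1022 CPM (0.42 ± 0.16). Eef2 was not called (−0.30 ± 0.23, adjusted p = 0.348), and Pabpc1 had −0.68 ± 0.30 (adjusted p = 0.0734) without and −0.66 (adjusted p = 0.00111) with the replicate block, in edgeR. The 29 calls became 19 without replicate 2 and 12 without replicate 4.

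**Figure D4:**
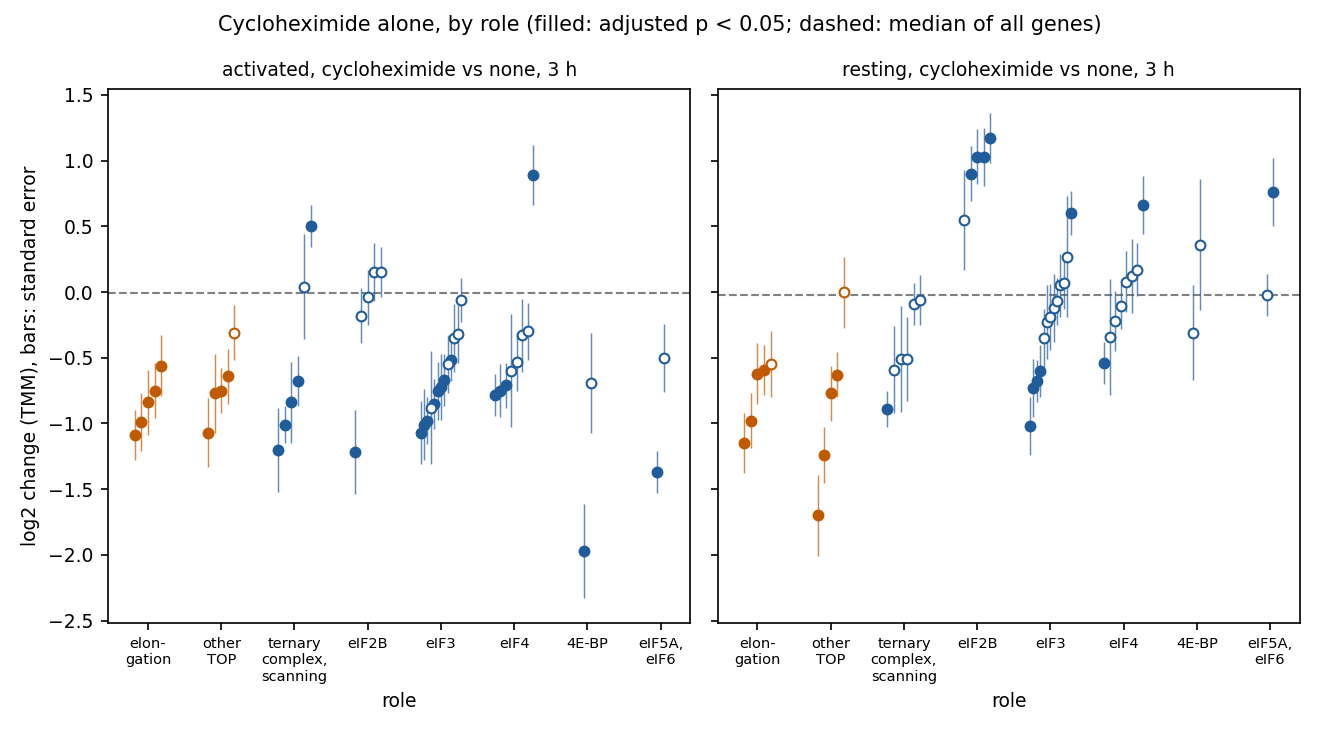
Log2 difference (TMM scaling) between CHX alone and untreated cells at 3 h for each member, in strips by role, in activated and resting cells; filled points are called at an adjusted p under 0.05 and the dashed line is the median of all genes tested. The eIF2B subunits lie above the line in resting cells and near or below it in activated cells, and elongation and TOP messages lie below it in both, although per spike-in only 1 of these 10 was lower, in activated cells, and 1 was higher, in resting cells.

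In resting cells with CHX alone, 8 of 10 elongation and TOP messages were lower and none higher (median −0.70), but per spike-in none was lower and 1 was higher (median 0.35). Of 36 initiation factors 7 were higher and 6 lower (median −0.08), and per spike-in 24 were higher and none lower (median 0.98). The background over all genes was 13.8% higher and 12.5% lower, and per spike-in 61.1% were higher with a median of 1.02. Tpt1 had 1660, 1982 and 2231 CPM untreated and 723, 985 and 774 CPM with CHX (−1.24 ± 0.21, edgeR adjusted p = 3.75e-06). Pabpc1 had 352, 406 and 451 CPM and then 111, 122 and 139 CPM (−1.70 ± 0.31, edgeR adjusted p = 1.6e-05). Eef1a1 had 14590, 15394 and 16761 CPM and then 7192, 6439 and 7405 CPM (−1.15 ± 0.23, edgeR adjusted p = 5.69e-05). None overlapped, and per spike-in they were −0.21, −0.65 and −0.10, none called. Eef2 was lower too (−0.62 ± 0.23, from a mean of 4185 to 2715 CPM, with 0.41 per spike-in).

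eIF2B was the group that lay higher in resting cells with CHX, with 4 of 5 subunits called and a median of 1.03 (per spike-in 5 of 5, median 2.06). Eif2b5 had 90.9, 83.7 and 95.7 CPM untreated and 201, 193 and 217 CPM with CHX (1.17 ± 0.19, edgeR adjusted p = 1.91e-06). Eif2b4 had 33.0, 20.3 and 18.9 CPM and then 56.1, 47.1 and 40.9 CPM (1.03 ± 0.21, edgeR adjusted p = 8.36e-05). Neither overlapped. Eif3e had 351, 476 and 626 CPM and then 201, 235 and 283 CPM (−1.02 ± 0.22, edgeR adjusted p = 0.000295), and Eif1ax 72.7, 91.8 and 111 CPM and then 47.1, 49.5 and 52.7 CPM (−0.89 ± 0.14, edgeR adjusted p = 1.77e-06), with 0.04 and 0.17 per spike-in. Eif4e (0.17 ± 0.20) and Eif4a1 (0.08 ± 0.23) were not called on the relative scale and were called higher per spike-in (1.22 and 1.13). The 21 calls became 8 without replicate 4.

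Harringtonine alone in resting cells gave 8 of 10 elongation and TOP messages lower (median −0.70; per spike-in none called, median 0.35) and 4 higher and 4 lower of 36 initiation factors (median 0.00; per spike-in 25 higher and none lower, median 1.04). For genes as a whole the calls were 9.84% higher and 10.6% lower, and per spike-in 60.1% were higher. Tpt1 went from 1660, 1982 and 2231 CPM to 812, 933 and 982 CPM (−1.11 ± 0.21, edgeR adjusted p = 4.28e-05) and Pabpc1 from 352, 406 and 451 CPM to 171, 208 and 193 CPM (−1.08 ± 0.30, edgeR adjusted p = 0.0059). Both were separated, with −0.06 and −0.03 per spike-in. The 4 initiation factors that were higher were all eIF2B subunits, with Eif2b1 at 0.87 ± 0.22 (from a mean of 20.03 to 36.5 CPM) and Eif2b4 at 0.77 ± 0.21 (24.1 to 40.6 CPM).

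The remaining leading members under harringtonine in resting cells were as follows. Eef1a1 (−1.05 ± 0.23, from a mean of 15582 to 7544 CPM) and Eef2 (−0.64 ± 0.23, 4185 to 2679 CPM) were lower, with 0.01 and 0.38 per spike-in. Eif1ax (−1.35 ± 0.15, 91.7 to 36.2 CPM) and Eif3e (−0.80 ± 0.22, 484 to 279 CPM) were lower, with −0.29 and 0.26 per spike-in. Eif4e (0.30 ± 0.20, adjusted p = 0.32) and Eif4a1 (−0.05 ± 0.23, adjusted p = 0.92) were not called in edgeR, and per spike-in both were higher (1.37 and 1.00). The 16 calls became 3 without replicate 4.

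The CHX response of running cells differed between states for many initiation factors. Of 36, 13 had a lower and 1 a higher difference in activated than in resting cells (median −0.61; per spike-in 15 and 0, median −1.17), and of 10 elongation and TOP messages 1 was lower and 1 higher (median 0.09; per spike-in 2 and 0, median −0.47). The whole table stood at 7.95% higher and 8.67% lower, and per spike-in 14.2% were lower with a median of −0.54. Without replicate 4 no member was called per spike-in. All 5 eIF2B subunits were among the 13, from −1.77 ± 0.50 for Eif2b3 to −0.87 ± 0.31 for Eif2b2. Eif2b3 and Eif4ebp1 (−2.33 ± 0.61, edgeR adjusted p = 0.00439) had the largest differences of their class, Eif4a2 was the member with a higher difference (1.11 ± 0.33, edgeR adjusted p = 0.0117), and Eif4e had −0.92 ± 0.29 (edgeR adjusted p = 0.0171).

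In the first class Pabpc4 had a lower difference (−1.08 ± 0.37, edgeR adjusted p = 0.0357) and Tpt1 a higher one (0.94 ± 0.29, edgeR adjusted p = 0.0169; 0.39 per spike-in, not called). Eef1a1 (0.16 ± 0.31, adjusted p = 0.787) and Eef2 (0.06 ± 0.32, adjusted p = 0.942) were not called in edgeR. Pabpc1 had 0.92 ± 0.42 (adjusted p = 0.125) and Eif4a1 −0.61 ± 0.32 (adjusted p = 0.189), and with the replicate block these were 0.93 (adjusted p = 0.00239) and −0.61 (adjusted p = 0.0111) in edgeR, with 26 members called in place of 16. The 16 calls became 9 without replicate 2, 14 without replicate 3 and 1 without replicate 4.

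**Figure D5:**
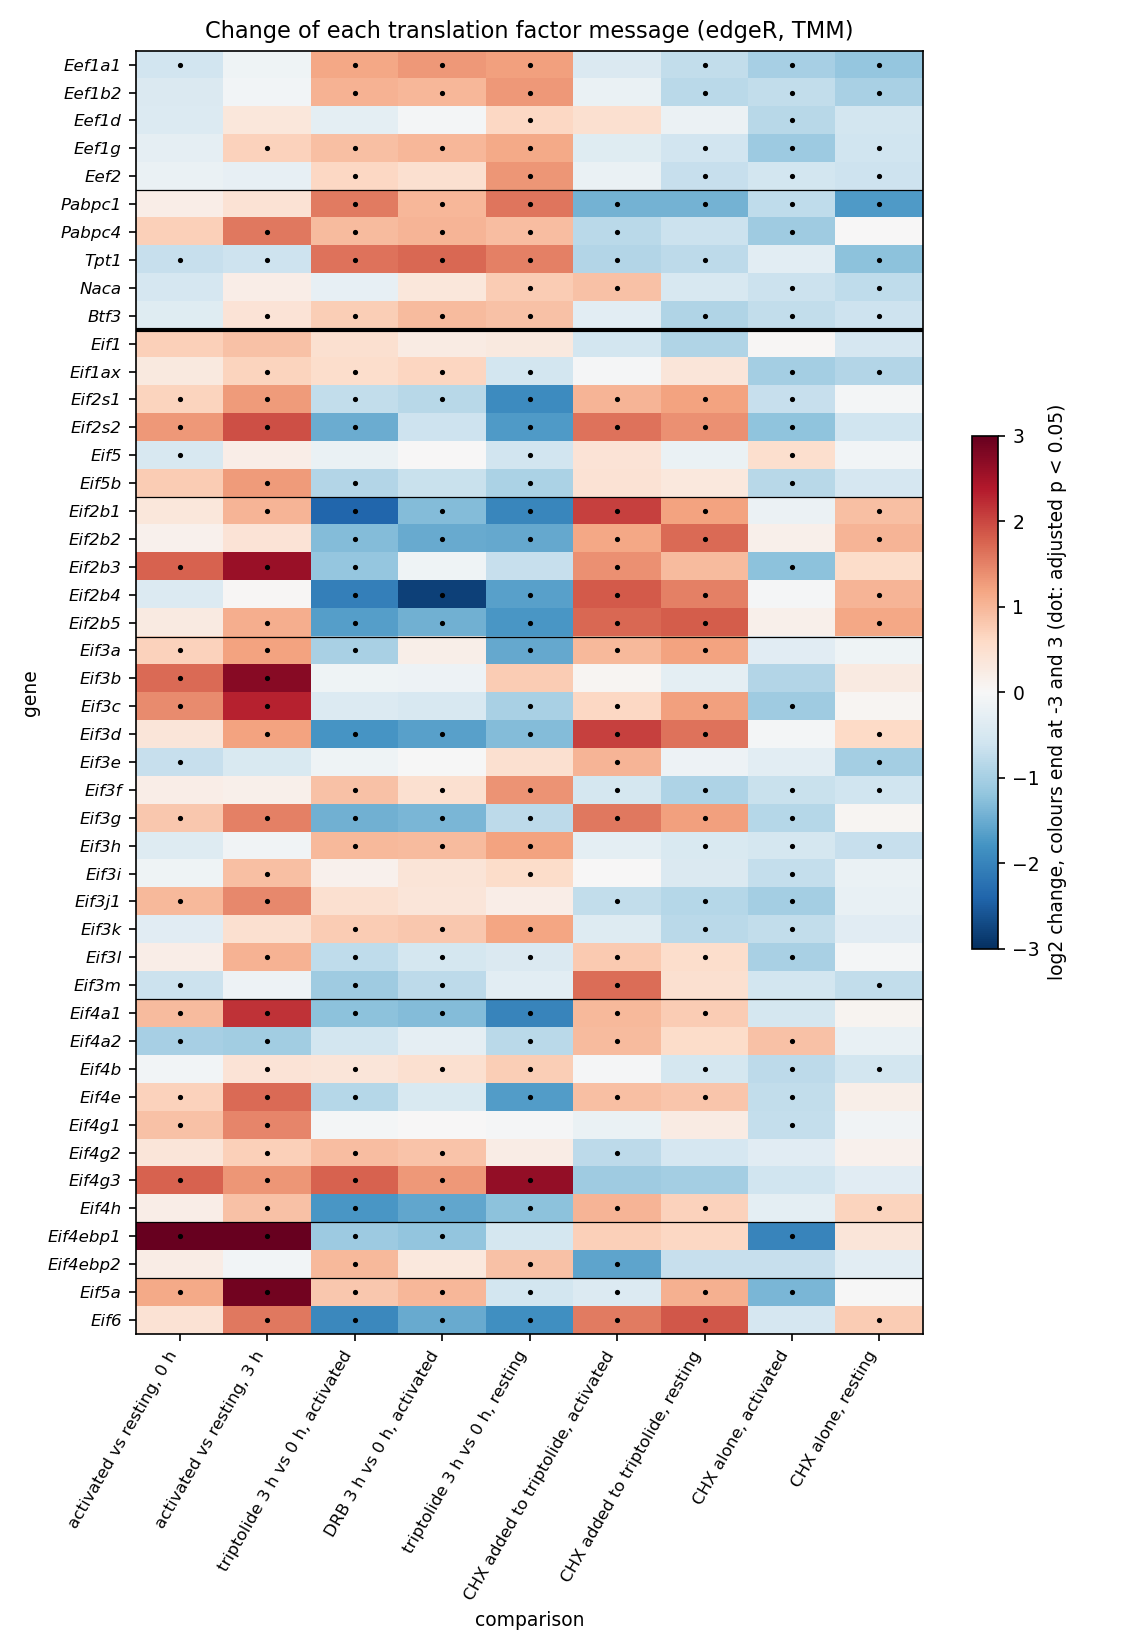
Log2 difference (TMM scaling, colours end at −3 and 3) of the 46 members in 9 comparisons, with a dot where the adjusted p is under 0.05 and a thick line between the elongation and TOP class and the initiation factors. The eIF2B block changes from lower after transcription arrest to higher once CHX is added, and the elongation and TOP messages called after arrest are all higher on this scale, although per spike-in none rose in any of the arrests.

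Other genes of the pathway, 65 of 68 listed passing the low-count filter, were counted by the same calls, with the shares of all genes called higher and lower beside them. At 0 h 18 were higher and 10 lower in activated cells (13.9% and 12.9% of all genes), and at 3 h 32 and 8 (26.3% and 27.5%). The enzymes and partners of the elongation factors gave 5 higher and 1 lower of 13 at 0 h, and the further initiation factors 5 higher and 2 lower of 18. After triptolide 10 of the 65 were higher and 26 lower in activated cells (21.5% and 26.2%) and 13 and 30 in resting cells (26.6% and 30.3%). After DRB 8 were higher and 21 lower (17.9% and 21.9%). Per spike-in 60 were lower after triptolide in activated and 56 in resting cells and 60 after DRB (77.7%, 75.5% and 78.2% of all genes), and none was higher. With CHX added to triptolide 17 were higher and 6 lower in activated (15.8% and 11.5%) and 18 and 10 in resting cells (18.8% and 16.4%), and per spike-in 35 and 41 were higher (34.6% and 46%) and none lower. CHX alone gave 3 higher and 14 lower in activated cells (15% and 15%), but 13 and 2 per spike-in (25.2% and 2.8%). In resting cells it gave 15 higher and 9 lower (13.8% and 12.5%), with 7 of the 13 elongation enzymes and partners higher and none lower, and per spike-in 43 of the 65 were higher (61.1%) and none lower.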

How the data were processed

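Total RNA of primary mouse CD4+ T cells was sequenced in 35 groups of 3 biological replicates as the labels name them. The authors deposited raw counts per gene and per ERCC RNA for exons, introns and coding sequence, made with TopHat2 2.0.13, Bowtie 1.1.1.0 and HTSeq on mm10, per the submitters' processing notes. Reads counted to no gene (75.84% to 97.25% per library) stayed out of library sizes and tests. Exon counts were fitted here over all libraries with edgeR 4.0.16 (R 4.3.3), TMM factors and a robust quasi-likelihood F test, with p-values adjusted by Benjamini-Hochberg over the 10741 genes kept by filterByExpr. Spike-in scaling replaced TMM by ERCC totals. CPM scales exon counts to the library total over the genes tested, adjusted by its TMM factor. This is the scaling of the test, so CPM values are no separate check on it. Summed marker CPM uses the unadjusted total. Levels per ERCC divide exon by ERCC counts. Resting 1 h triptolide replicate 3 was left out of levels per ERCC. The fits were tested on simulated counts.

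The members and all lists were chosen with earlier results of these data known. Every comparison gives Eef1a1, Eef2, Tpt1, Pabpc1, Eif4a1 and Eif4e, and from each class the 2 called members with the largest rise and the 2 with the largest fall that reach 10 CPM in 1 of the groups; other genes were named after their values were seen. RefSeq starts were read from promoter tables of GRCm38.p6 and GENCODE starts from the transcripts of mm10. Libraries with the same replicate number in the same state deviated together (mean correlation 0.325, beside −0.161 for other numbers and −0.0786 for the same number across states), and every library was on average closest to its own number. The pairing was taken as given where every same-number correlation exceeded 0.1, and for 5 of 17 comparisons it did not (activation at 0 and 3 h, untreated resting, triptolide activated, and harringtonine added to triptolide in activated cells). The main fit ignored the replicate number in every comparison, also where the pairing held. A member not called there may therefore be called with the replicate block. With that block, 14 of 21 counts of called members stayed within 1.5 times. Alternatives were DESeq2 1.42.0, RLE factors, library size alone, spike-in scaling, no filter, only the libraries compared, a replicate block within each state, each replicate left out, the shallowest libraries left out, and coding-sequence counts.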

Additional observations from a re-analysis of the deposited data

Results flagged for a closer look

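A test of the difference between activated and resting cells passed for 22 combinations of member and treatment (edgeR's quasi-likelihood test, Benjamini-Hochberg over all genes, log2 activated minus resting with standard errors). For the 3 h triptolide change 4.07% of all genes were called higher and 2.4% lower, and the calls among members lie near that share. They were Eif5a with 1.37 ± 0.23, Eif2s1 with 1.16 ± 0.29, Eif1ax with 1.07 ± 0.21 and Naca with −1.01 ± 0.30. Activated 3 h triptolide replicate 3 stands apart in spike-ins, and without it none of these was called under spike-in scaling; its part in the result was not tested further.

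For CHX added to triptolide (0.102% of all genes higher and 0.186% lower) they were Naca with 1.37 ± 0.30 and Eif5a with −1.47 ± 0.23. These share the 3 h triptolide libraries with the former and were not called under spike-in scaling.

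For CHX alone the eIF2B subunits were all lower in activated cells, Eif2b3 with −1.77 ± 0.50, Eif2b1 with −1.08 ± 0.30, Eif2b4 with −1.07 ± 0.30, Eif2b5 with −1.02 ± 0.26 and Eif2b2 with −0.87 ± 0.31. Also lower were Eif4ebp1 with −2.33 ± 0.61, Eif5a with −1.34 ± 0.23, Eif6 with −1.26 ± 0.37, Eif3c with −1.12 ± 0.34, Pabpc4 with −1.08 ± 0.37, Eif4h with −0.96 ± 0.31, Eif4e with −0.92 ± 0.29, Eif3g with −0.92 ± 0.27 and Eif3l with −0.90 ± 0.26. Higher were Eif4a2 with 1.11 ± 0.33 and Tpt1 with 0.94 ± 0.29, which were not called under spike-in scaling (0.56 and 0.39). Of all genes 7.95% were called higher and 8.67% lower for CHX alone. Without replicate 4 in any group, the count of called members fell from 16 to 1.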

How the results depend on the processing

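Of 3758 values of named members under alternatives, 3223 kept direction and side of the threshold, 407 lost the call, 66 gained it and 62 changed sign, 61 of these under spike-in scaling. Of 256 counts of called members, 204 stayed within 1.5 times. Depth limits the shallowest pair of libraries (6300 and 141028 exon counts).

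Counts beyond 1.5 times, with the cause not tested, were these. Untreated activated cells (12) gave 19 with DESeq2, 5 without the filter, 7 without the shallowest libraries, 4 with only the libraries compared and 25 with the replicate block. Untreated resting cells (1) gave 5 with the block and 0 under spike-in scaling, no filter, coding-sequence counts and only the libraries compared. With only the libraries compared, CHX on DRB (19) gave 9, harringtonine on DRB (19) 8 and the CHX-on-triptolide difference (2) 0. Spike-in scaling gave 5 for CHX alone in activated cells (29), 7 for harringtonine alone (29), 25 for harringtonine in resting cells (16) and 0 for the CHX-on-triptolide difference. The decay difference (4) gave 2 without the filter, 1 with coding-sequence counts and 0 per spike-in without activated 3 h triptolide replicate 3, and the CHX-on-triptolide difference 1 without that library (0 per spike-in). Introns (8) gave 13 with RLE factors.

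The replicate block moved further counts, harringtonine on resting triptolide from 20 to 33, the decay difference from 4 to 10, the CHX-on-triptolide difference to 4, the CHX difference from 16 to 26 and introns to 22. Where the pairing was not established, it gave calls not made without it: Pabpc1 0.40 (adjusted p = 0.0422) for activation at 3 h, Eif4a1 −0.63 (0.000462) for untreated resting cells, Eef1a1 −0.49 (0.0113), Tpt1 −0.47 (0.0328) and Eif6 0.52 (0.0157) for harringtonine on activated triptolide, and Eef2 −0.71 (0.0151), Eif4a1 0.75 (0.00649) and Eif4e 0.83 (0.0413) for the decay difference, and intron values of Tpt1 −1.91, Eif4a1 −2.06 and Eif4e 1.00. The other calls of named members gained with the block are given above with their comparisons. It lost and reversed no call of a named member.

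Leaving out replicates 2, 3 and 4 in turn gave ranges of 11 to 23 for activation at 0 h (20), 25 to 30 at 3 h (30), 1 to 13 for untreated activated and 0 to 2 for untreated resting cells, 26 to 31 for triptolide in activated (35) and 30 to 34 in resting cells (37), 19 to 27 for DRB (28), 16 to 28 for CHX and 20 to 21 for harringtonine on activated triptolide, 9 to 17 and 10 to 17 on DRB, 15 to 27 and 10 to 19 on resting triptolide, 12 to 27 and 12 to 24 alone in activated and 8 to 20 and 3 to 15 in resting cells, 2 to 3 for the decay difference, 0 to 3 for the CHX-on-triptolide difference, 1 to 14 for the CHX difference and 3 to 13 for introns.

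Spike-in scaling reversed these log2 values. Triptolide in activated cells gave Eef1a1 −0.41, Eef2 −0.90, Eif1ax −1.06, Eif3f −0.63, Eif3h −0.62, Eif3k −0.84, Eif4ebp2 −0.43 and Eif5a −0.75. DRB gave Eef1a1 −0.34, Eef2 −1.05, Eif1ax −0.87, Eif3a −1.30, Eif3h −0.57, Eif3k −0.78, Eif4g3 −0.14, Eif5a −0.58, Naca −1.26 and Pabpc1 −0.48. Resting triptolide gave Eef1a1 −0.50, Eef1d −1.06, Eef2 −0.33, Eif3f −0.36, Eif3h −0.51, Eif3k −0.51, Naca −0.95, Pabpc1 −0.11 and Tpt1 −0.20. Adding CHX gave Eef1a1 0.04 and Eif3h 0.21 on DRB, Eif5a 0.19 on activated triptolide, and Eef1a1 0.17, Eef2 0.22, Eif3j1 0.08 and Tpt1 0.11 on resting triptolide (Eif3j1 0.28 with coding-sequence counts). Harringtonine on DRB gave Eef1a1 0.10. In resting cells CHX gave Eef2 0.41, Eif1ax 0.17, Eif3e 0.04 and Eif5a 1.00, and harringtonine Eef1a1 0.01, Eef2 0.38, Eif3e 0.26 and Eif4a1 1.00. Activation at 3 h gave Tpt1 0.03. Spike-in scaling without activated 3 h triptolide replicate 3, an alternative chosen after seeing the data, gave for triptolide Eef1a1 −0.65, Eef2 −1.41, Eif1ax −1.34, Eif3f −1.30, Eif3h −0.93, Eif3k −1.06, Eif4ebp2 −1.49, Eif4g3 −0.27, Eif5a −1.12, Pabpc1 −0.63 and Tpt1 −0.49, with CHX added Eef2 0.86, Eif3f 0.67, Eif4g2 0.29, Eif5a 0.56 and Tpt1 0.26, and with harringtonine added Eif4g1 0.01.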
